A study of Mus musculus with 14 samples.

Results

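The skin of mice that carry both copies of Nedd8 between loxP sites and no Cre recombinase was compared after imiquimod and after DMSO. These animals, labelled NEDD8fl/fl, K14-CreERT neg and called Cre-negative here, keep an unrecombined Nedd8 gene. The transgene they lack, K14-CreERT, is an inducible Cre under the keratin 14 promoter of basal keratinocytes. The members were the count columns of this genotype, 2 libraries with imiquimod (IMQ) and 3 with DMSO, which makes 5 of the 14 libraries in the series. Every gene of the table was described, 56953 in all, of which 16027 had enough reads to be tested. Per the labels' protocols, a cream with 5% imiquimod (Aldara) was put on the skin every day from day 0 to day 7, on the shaved back or on the right ear. The labels do not say which site, animal, age or sex a library came from, nor whether the Cre-negative mice received the inducer that the knockout mice had for 5 days. The series' own design text speaks of another treatment, a NEDD8 inhibitor or DMSO on wild-type back skin over 3 days. No library's label carries that treatment. Day 0 to day 7 is recorded for the DMSO libraries as for the others, and no separate schedule for DMSO is given. The controls are labelled DMSO, so imiquimod and the other contents of the cream cannot be told apart. Wild-type C57BL/6J skin, with 2 imiquimod and 2 DMSO libraries, served as the nearest other comparison. It shares no library with the Cre-negative one.

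Imiquimod is a small imidazoquinoline that activates the receptor TLR7, which senses single-stranded RNA in the endosomes of plasmacytoid dendritic cells and other leukocytes. Repeated application to mouse skin gives a thickened, scaling epidermis with neutrophils, a common model of psoriasis. In that model dendritic cells release IL-23, γδ T cells and innate lymphoid cells answer with IL-17 and IL-22, and keratinocytes answer with antimicrobial peptides, neutrophil chemokines and IL-36. The libraries (QuantSeq forward) read 1 tag at the 3′ terminus of a polyadenylated RNA, so that a count does not grow with transcript length. Levels are given as CPM, the read counts scaled to library size with TMM factors, which set the bulk of genes to be level between libraries. A gene is said to have risen or fallen where edgeR's quasi-likelihood test gave an adjusted p under 0.05 over all genes tested. The value after ± is the standard error of the log2 fold change, and the amount by which a gene rose or fell is given on the log2 scale. A called gene given with its fold change held its call without any 1 of the 5 Cre-negative libraries, unless its own sentence states a loss. Where a count of 3 or more called genes in a list moved by over 1.5 times without 1 library, the count without it stands in brackets. Counts of 1 or 2 genes were often lost with 1 library. The lists were drawn from textbook knowledge, but with earlier results of these data known, so their counts are not independent of the data. A list is read against the shares of all genes that rose and fell.

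The Cre-negative libraries held 7735269 and 20865337 counts with imiquimod, and 15509178, 15437888 and 10839387 with DMSO. Reads of 18S ribosomal RNA took 9.91% and 19.1% of the counts in imiquimod skin, against 9.50%, 8.59% and 9.89% in DMSO skin. From Xist and Y-linked genes, both imiquimod libraries came from male skin, as did DMSO replicates 1 and 2, while DMSO replicate 3 came from female skin. All wild-type libraries came from female skin. Markers of keratinocytes, fibroblasts, vessels, muscle, fat, leukocytes and blood were all detected, as the label skin implies. With 2 and 3 libraries, and nothing in the labels to tie a library to an animal, p-values measure the spread between libraries, which may be technical. In whole skin, fewer cells of a type and less RNA per cell cannot be told apart.

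Imiquimod changed the skin transcriptome broadly. Of 16027 genes tested, 1307 rose (8.15%) and 1614 fell (10.1%), 18.2% in all, and the median over all genes was a log2 fold change of -0.06. The libraries of the groups did not overlap in 24.8% of genes above and 29.5% below DMSO skin. Among called genes, 1301 of the 1307 that rose and all 1614 that fell did not overlap. A lack of overlap given below for called genes therefore adds little to their call. Among the called genes, 348 rose by more than 3 on the log2 scale and 507 fell by more than 3. With imiquimod replicate 2 left out, so that the shallower imiquimod library stood alone and was assumed to vary like the other groups, 1272 genes passed. Without DMSO replicate 1 or DMSO replicate 2, 1616 and 1644 passed. In all, 815 calls, 431 higher and 384 lower, held when any 1 Cre-negative library was left out. With the DMSO libraries restricted to the 2 male ones, which is the same fit as without DMSO replicate 3, 2238 genes passed. Scaling by library size alone moved the median gene by -0.58 and turned the split to 537 higher and 3141 lower.

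**Figure D1:**
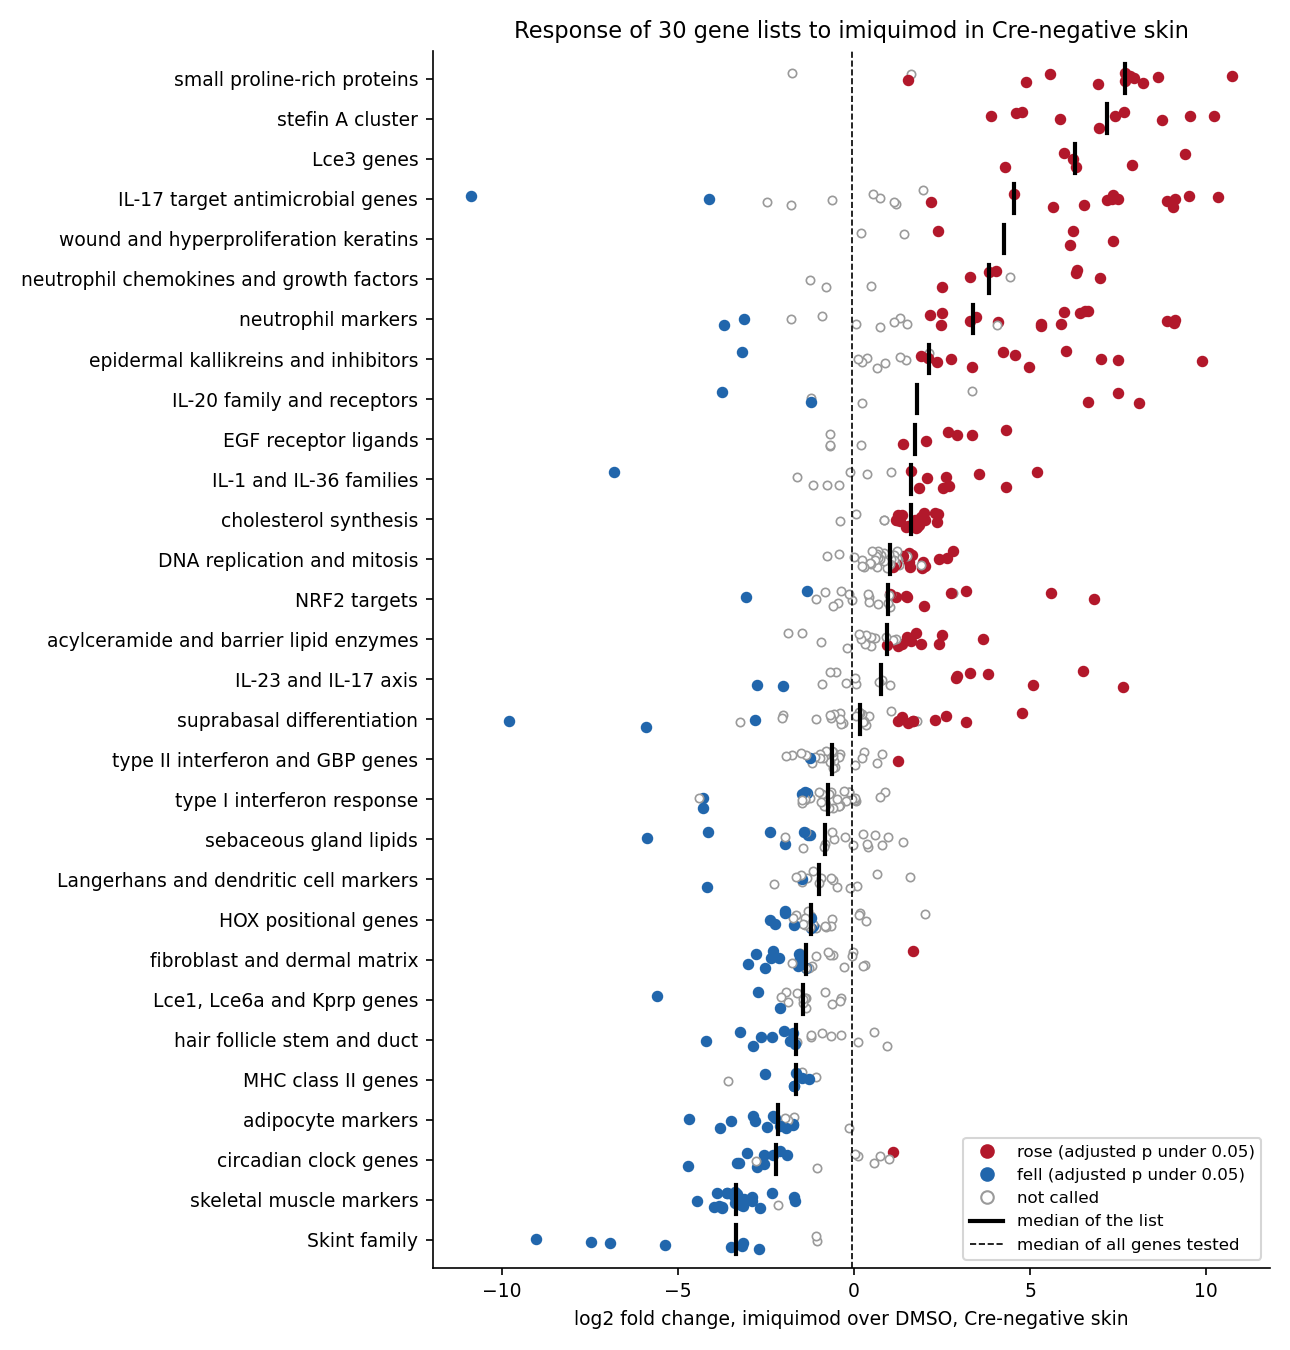
Log2 fold change of imiquimod over DMSO in Cre-negative skin for the tested members of 30 gene lists, 1 point a gene (red rose, blue fell, open not called), with a black bar at each list's median and a dashed line at the median of all genes. Small proline-rich, stefin A and Lce3 genes lie at the top with medians of 7.68, 7.18 and 6.27, and Skint and skeletal muscle genes at the bottom, both with medians of -3.34.

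RNA of alarmins rose to high levels. Those given here, S100a8 and S100a9, encode calcium-binding and antimicrobial proteins that stressed keratinocytes and neutrophils release. S100a8 (GRCm39 chr3:90576285-90577342, plus strand) had 54076 and 121399.7 CPM in imiquimod skin, against 37.1, 65 and 452 CPM in DMSO skin. S100a9 had 31837 and 71399.8 CPM in imiquimod skin, against 23.4, 30.4 and 229 CPM in DMSO skin. Every imiquimod library lay far above every DMSO library for both genes, and DMSO replicate 3 was the highest of the controls (log2 fold change 8.89 ± 1.26, adjusted p = 0.000514 for S100a8 and log2 fold change 9.10 ± 1.12, adjusted p = 0.000191 for S100a9). DESeq2 gave S100a8 no adjusted p. Together the pair made up 7.74% and 13.7% of all counts in imiquimod skin.

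Of 23 tested antimicrobial genes that IL-17 is known to induce, 13 rose and 2 fell, and the median log2 fold change was 4.53. Defb3, a β-defensin that kills bacteria by permeating their membranes, had 148 and 253 CPM in imiquimod skin, against 0, 0 and 0.51 CPM in DMSO skin. Defb4, its neighbour in the defensin family, had 41 and 29.5 CPM in imiquimod skin, against 0.0559, 0 and 0.0729 CPM in DMSO skin. Both were close to absent without imiquimod (log2 fold change 10.34 ± 1.11, adjusted p = 6.39e-05 for Defb3 and log2 fold change 9.50 ± 0.75, adjusted p = 1.29e-05 for Defb4). Slpi, an inhibitor of neutrophil elastase, had 284 and 345 CPM in imiquimod skin, against 1.34, 1.48 and 3.72 CPM in DMSO skin, and the imiquimod libraries stood apart (log2 fold change 7.19 ± 0.49, adjusted p = 6.90e-06). Saa3, an acute-phase serum amyloid that tissues make locally, had 94.7 and 351 CPM in imiquimod skin, against 0.335, 0.274 and 0.656 CPM in DMSO skin (log2 fold change 9.06 ± 0.87, adjusted p = 3.49e-05). On the log2 scale the 13 spanned 2.18 to 10.34, and they included Lcn2, Chil1, Saa1, Saa2, S100a7a, Defb14 and Defb1, and 12 of the 13 held without any 1 library. The cathelicidin gene Camp, Lyz2 and Ltf did not pass the test. S100a7l2 had 0 CPM in both imiquimod libraries, against 37.5, 8.97 and 0.364 CPM in DMSO skin, and its drop rested on DMSO replicates 1 and 2. The call was lost without either imiquimod library (adjusted p up to 0.119) and by voom, and without DMSO replicate 1 or 2 the gene had too few reads to test.

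Keratins changed in both directions. Keratins are the paired filament proteins of the epidermis, and Krt6a, Krt6b, Krt16 and Krt17 are the set that keratinocytes switch on in wounds and psoriatic plaques. Krt6a had 12039 and 9671 CPM in imiquimod skin, against 127, 159.7 and 180.0 CPM in DMSO skin. Krt6b had 8289.7 and 9210 CPM in imiquimod skin, against 22.1, 32.2 and 105 CPM in DMSO skin. Krt16 had 4962 and 4411 CPM in imiquimod skin, against 38.4, 57.8 and 92.6 CPM in DMSO skin. These 3 were among the most abundant RNAs of imiquimod skin and no library overlapped (log2 fold change 6.13 ± 0.44, adjusted p = 9.76e-06 for Krt6a, log2 fold change 7.36 ± 0.74, adjusted p = 4.27e-05 for Krt6b and log2 fold change 6.22 ± 0.60, adjusted p = 3.49e-05 for Krt16). Krt17 rose less, by 2.39 on the log2 scale, and the simple-epithelial keratins Krt18 and Krt19 of the same list did not pass. Krt14, the keratin of basal cells, had 11549 and 9708 CPM in imiquimod skin, against 2316, 3103 and 1997 CPM in DMSO skin, and also rose (log2 fold change 2.10 ± 0.39, adjusted p = 0.00259).

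Other keratins fell. Krt77, an interfollicular suprabasal keratin (GRCm39 chr15:101767166-101778140, minus strand), had 14.2 and 12.4 CPM in imiquimod skin, against 9128, 16009.8 and 10616 CPM in DMSO skin, and no library overlapped (log2 fold change -9.81 ± 1.10, adjusted p = 8.66e-05). Krt15, a keratin of quiescent basal and follicle stem cells, had 37.9 and 33.4 CPM in imiquimod skin, against 1941, 2016 and 1574 CPM in DMSO skin, and fell (log2 fold change -5.69 ± 0.47, adjusted p = 1.58e-05). Krt10, the classic suprabasal keratin, had 2235 and 491 CPM in imiquimod skin, against 1863, 6529 and 8589 CPM in DMSO skin. The groups overlapped and the 2 imiquimod libraries differed from each other, so Krt10 was not called (log2 fold change -2.05 ± 0.84, adjusted p = 0.104), although it passed with DESeq2 (adjusted p = 0.0273) and with no filter on low counts (adjusted p = 0.000179). Krt24, a keratin of late differentiation, fell by 4.19 on the log2 scale. Of 18 genes of the basal layer and its hemidesmosomes, which anchor it to the basement membrane, 2 rose and 3 fell, among them Ccnd2, which drives entry to the cell cycle (log2 fold change -1.98 ± 0.38, adjusted p = 0.00358), and Dst, whose epidermal product links keratin filaments to hemidesmosomes. The call of Dst was lost without imiquimod replicate 2 (adjusted p = 0.0718), and Krt5, the partner of Krt14, did not pass.

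**Figure D2:**
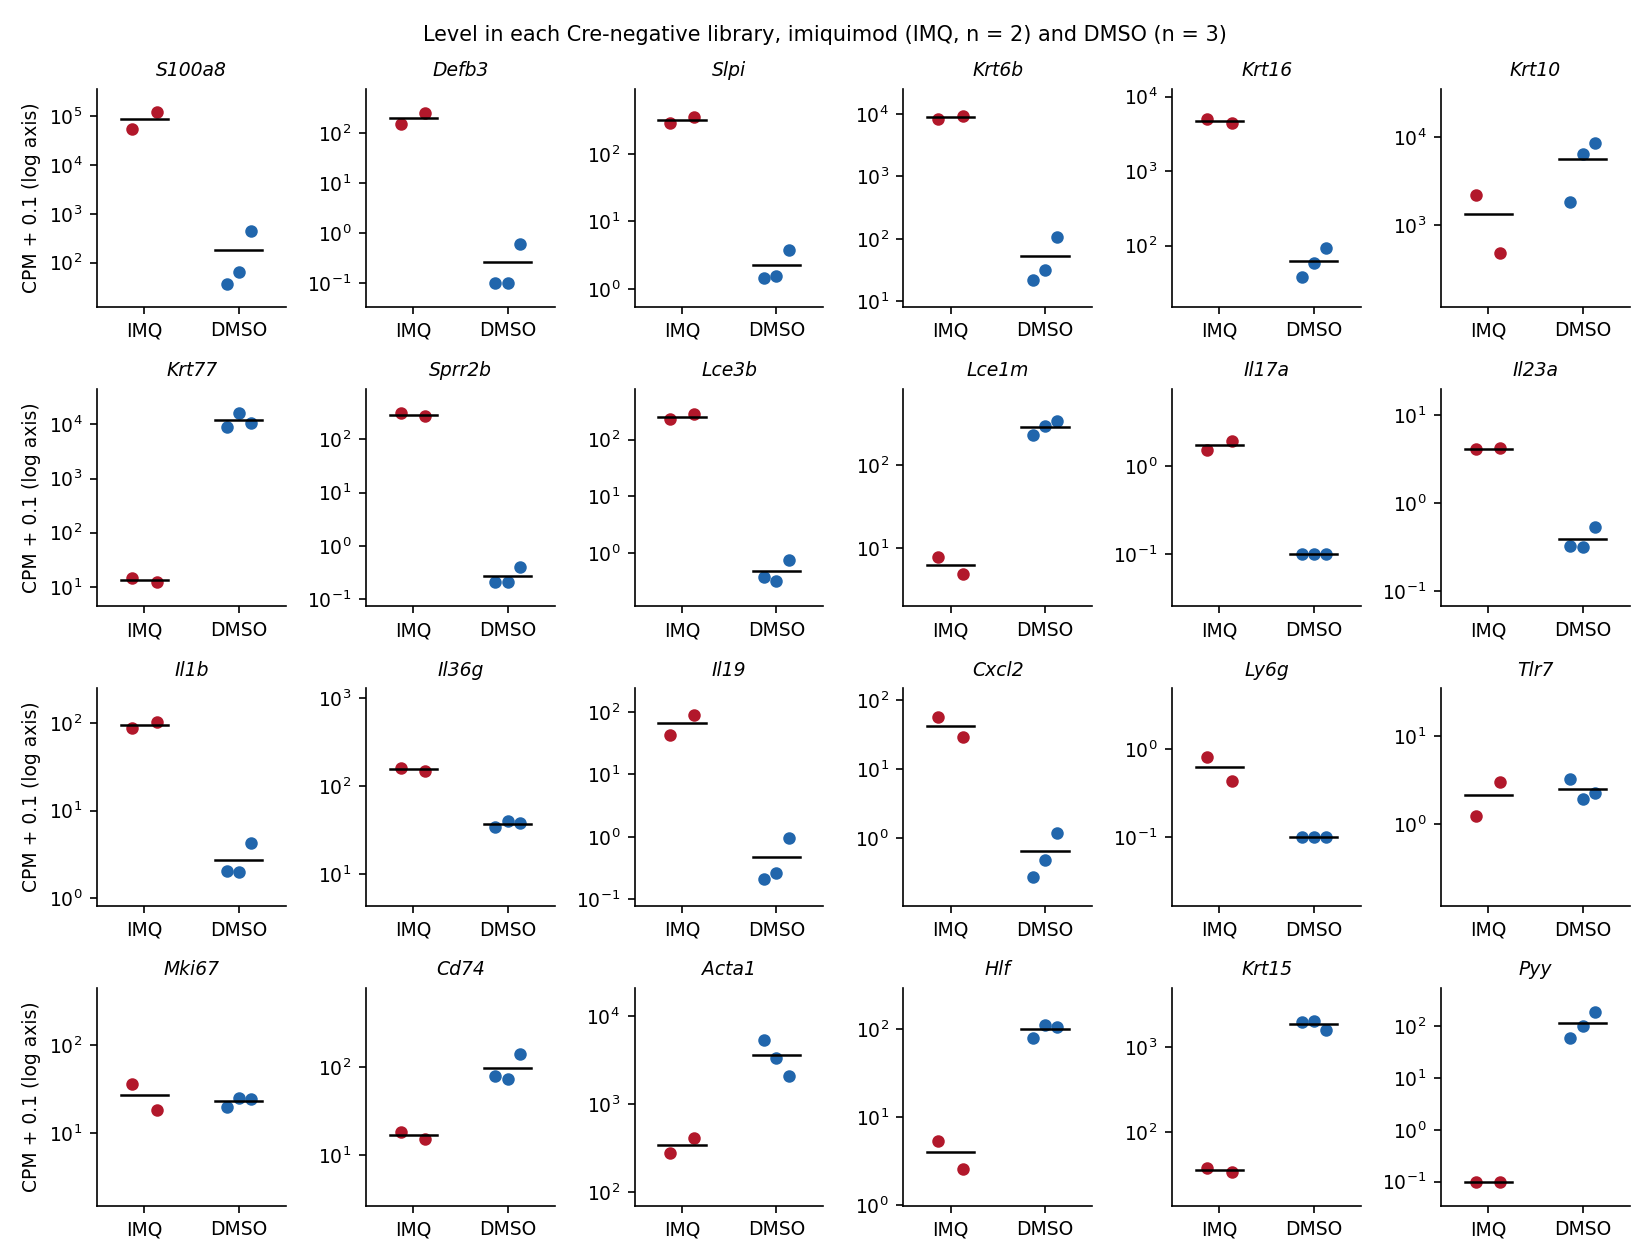
Level of 24 genes in each Cre-negative library as CPM plus 0.1 on a log axis, imiquimod (red, n = 2) left of DMSO (blue, n = 3), with a black line at each group's mean. S100a8, Defb3, Krt6b, Sprr2b, Lce3b and Il1b are higher in both imiquimod libraries, Krt77, Krt15, Hlf, Acta1 and Pyy are lower, and Krt10, Tlr7 and Mki67 overlap.

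The cornified envelope, the cross-linked protein shell that replaces the membrane of dying surface keratinocytes, changed its precursors. Small proline-rich (Sprr) proteins are envelope cross-bridges used under stress, and 11 of the 13 tested Sprr genes rose, with a median log2 fold change of 7.68. Summed over the list, Sprr RNA came to 14056 and 12851 CPM in imiquimod skin, against 667, 845 and 1197 CPM in DMSO skin. Sprr2b had 309 and 268 CPM in imiquimod skin, against 0.112, 0.109 and 0.291 CPM in DMSO skin. Sprr2f had 1249 and 1487 CPM in imiquimod skin, against 3.47, 4.16 and 12.3 CPM in DMSO skin. Sprr1b had 2766 and 1657 CPM in imiquimod skin, against 50.7, 98.6 and 73.9 CPM in DMSO skin. Each was low in every DMSO library and high in both imiquimod libraries (log2 fold change 10.72 ± 1.08, adjusted p = 4.50e-05 for Sprr2b, log2 fold change 7.69 ± 0.67, adjusted p = 1.92e-05 for Sprr2f and log2 fold change 4.89 ± 0.43, adjusted p = 1.92e-05 for Sprr1b). Sprr2g, Sprr2h and Sprr2k rose by 6.91, 5.57 and 8.20. Sprr1a, abundant in both groups, lost its call without any 1 library other than DMSO replicate 3, and Sprr3 and Sprr2a3 did not pass. Sprr2 genes are near-identical in sequence, so reads may have been split or lost between them.

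Promoters of these Sprr genes share a short motif, and the windows around it are shown because the family moved together. The AP-1 motif, to which Fos and Jun dimers bind, was searched as TGANTCA (N for any base) on both strands from 250 bases before to 50 after each start in RefSeq promoters of GRCm38.p6. It was in 9 of the 11 Sprr promoters found (81.8%), against 7.81% of all 32851 promoters and 6.13% of those of tested genes. It stood in none of the 6 Lce3 promoters and in 1 of 9 stefin A promoters. In the type I interferon list, where no gene rose, it was in 7 of 30 promoters (23.3%). Among all genes that rose it was in 8.93% of promoters, and among all that fell in 6.64%. Capitals mark the motif with 30 bases on each side, 5′ to 3′ along the gene, at chr3:92316480-92316546 (plus strand), chr3:92338917-92338983 (plus strand), chr3:92364960-92365026 (plus strand), chr3:92407768-92407834 (plus strand) and chr3:92438854-92438920 (minus strand).
Sprr2b: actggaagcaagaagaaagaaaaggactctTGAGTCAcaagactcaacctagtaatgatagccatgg
Sprr2d: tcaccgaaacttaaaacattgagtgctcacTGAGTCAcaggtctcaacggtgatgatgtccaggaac
Sprr2f: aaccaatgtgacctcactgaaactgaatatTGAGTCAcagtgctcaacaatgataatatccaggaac
Sprr2i: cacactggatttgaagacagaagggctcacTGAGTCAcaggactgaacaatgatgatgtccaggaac
Sprr1b: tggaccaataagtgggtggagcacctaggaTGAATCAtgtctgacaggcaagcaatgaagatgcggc
The 4 Sprr2 windows carry the same 7 letters. Sprr2 genes are duplicates of each other, so their windows are not independent. In Sprr1b the motif has another middle base. A match is a description of the letters, and binding was not measured.

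Of 18 AP-1 and immediate early genes, 8 rose (4 without imiquimod replicate 1 or DMSO replicate 1, 5 without imiquimod replicate 2 or DMSO replicate 3) and none fell, with a median of 1.03. Fos had 77.6 and 51.5 CPM in imiquimod skin, against 12, 19.3 and 16.2 CPM in DMSO skin (log2 fold change 2.03 ± 0.41, adjusted p = 0.00439), and Ier3, an early gene that protects from cell death, rose by 2.18. Fosl1 had 9.33 and 19.5 CPM in imiquimod skin, against 4.03, 4.92 and 2.19 CPM in DMSO skin (log2 fold change 1.96 ± 0.40, adjusted p = 0.00472), but was lost without imiquimod replicate 2 (adjusted p = 0.0929), as was Batf. Jund, Fosl2, Atf3 and Myc did not pass.

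Late cornified envelope genes split by subfamily. All 6 Lce3 genes, the subfamily known from injured and psoriatic skin, rose, with a median of 6.27 and a range of 4.28 to 9.40. Lce3b had 227 and 284 CPM in imiquimod skin, against 0.28, 0.219 and 0.656 CPM in DMSO skin (log2 fold change 9.40 ± 0.80, adjusted p = 1.70e-05). Lce3f had 528 and 705 CPM in imiquimod skin, against 5.93, 6.51 and 10.9 CPM in DMSO skin (log2 fold change 6.31 ± 0.64, adjusted p = 4.49e-05). Every imiquimod library was above every DMSO library in all 6. Of 16 genes of the Lce1 subfamily with Lce6a and Kprp, which serve ordinary cornification, none rose and 3 fell (1 without either imiquimod library), and their median was -1.45. Lce1m had 7.6 and 4.71 CPM in imiquimod skin, against 234, 301 and 344 CPM in DMSO skin, and fell (log2 fold change -5.59 ± 0.78, adjusted p = 0.000495), whereas Lce1l lost its call without either imiquimod library and Lce1c without any of the 5.

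**Figure D3:**
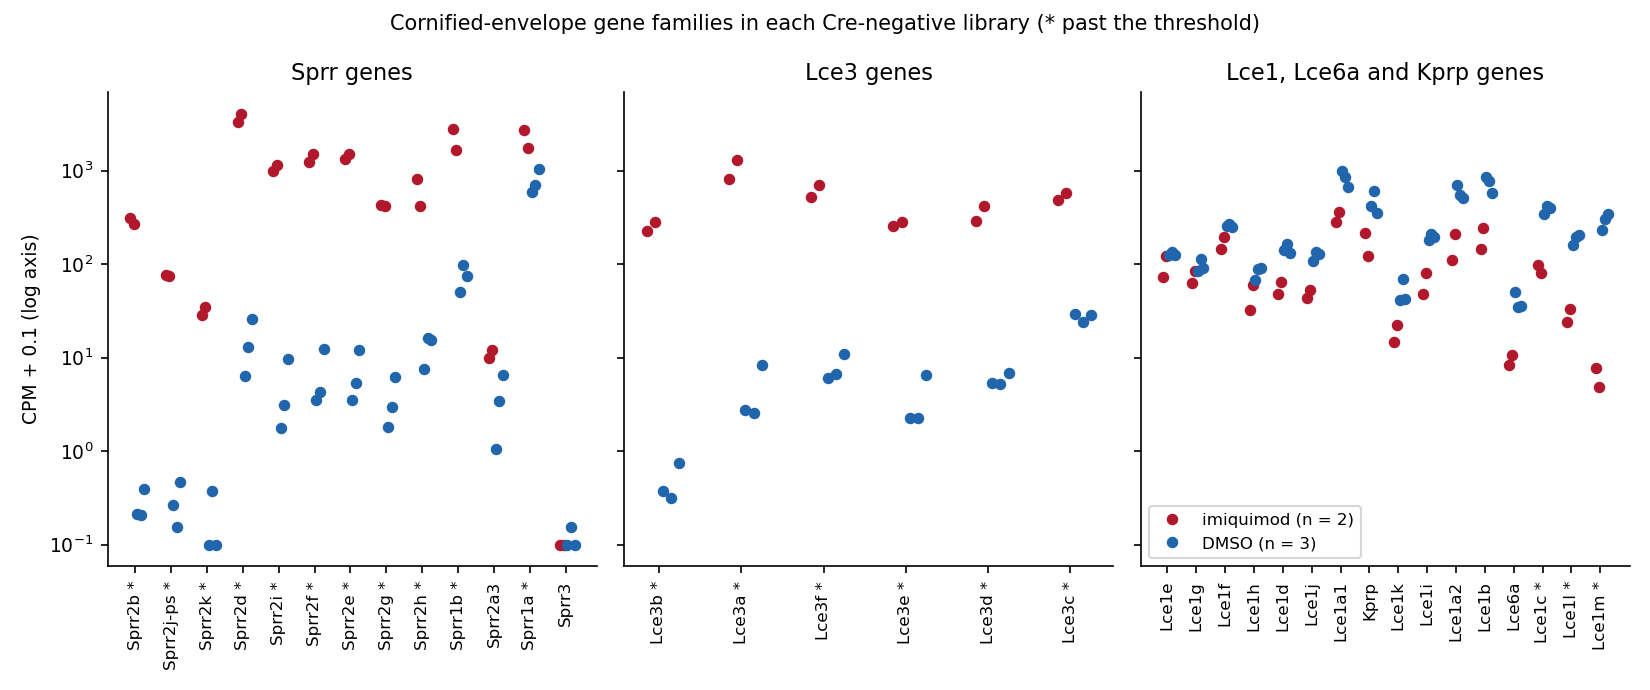
Level of each tested Sprr, Lce3 and Lce1-type gene in the 5 Cre-negative libraries as CPM plus 0.1 on a log axis, imiquimod (red) left of DMSO (blue) within each gene, genes in order of their log2 fold change, with a star for those past the threshold. The 6 Lce3 genes and 12 of 13 Sprr genes lie higher in both imiquimod libraries, 11 of these Sprr genes past the threshold, and 3 of 16 Lce1-type genes passed, all lower.

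Stefin A proteins are small inhibitors of cathepsins, encoded in a cluster that has expanded in mice. All 10 tested genes of the cluster rose and all held without any 1 library, with a median of 7.18. Their sum came to 19096 and 28013 CPM in imiquimod skin, against 437, 481 and 1247 CPM in DMSO skin. Csta3 had 882 and 2856 CPM in imiquimod skin, against 0.559, 0.766 and 6.34 CPM in DMSO skin (log2 fold change 9.55 ± 1.05, adjusted p = 7.84e-05). Cstdc5 had 7485 and 8871 CPM in imiquimod skin, against 76.2, 59 and 295 CPM in DMSO skin (log2 fold change 5.84 ± 0.83, adjusted p = 0.000513). Cstdc4 had 10.8 and 9.22 CPM in imiquimod skin, against 0 CPM in all 3 DMSO libraries, at least 166-fold higher when DMSO skin is set to a floor of 3 counts over its 3 libraries, as for other genes at 0 there. These paralogs are near-identical, and reads may move between them.

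Kallikreins are serine proteases that cut the junctions of surface cells and let them shed. Of 21 kallikreins and their inhibitors, 12 rose and 1 fell, with a median of 2.12. Klk13 had 370.0 and 294 CPM in imiquimod skin, against 4.86, 3.56 and 6.85 CPM in DMSO skin (log2 fold change 6.03 ± 0.49, adjusted p = 1.47e-05). Klk6 had 645 and 876 CPM in imiquimod skin, against 26.9, 32.7 and 37.2 CPM in DMSO skin (log2 fold change 4.56 ± 0.45, adjusted p = 4.09e-05). Klk12 and the inhibitor Serpinb3b rose by 4.96 and 4.23. Klk7, the most abundant of them, had 6799 and 13940.2 CPM in imiquimod skin, against 2398, 2118 and 2748 CPM in DMSO skin, with no overlap. Its call was lost without imiquimod replicate 2 or any 1 DMSO library, and with a sex term (adjusted p = 0.0585 with that term). Spink12, a Kazal-type serine protease inhibitor, had 9.9 and 5.92 CPM in imiquimod skin, against 0 CPM in all 3 DMSO libraries, at least 132-fold higher. Spink5, the inhibitor lost in Netherton syndrome, and Klk5 did not pass.

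Of 33 genes of suprabasal differentiation, 9 rose (4 without imiquimod replicate 1, 5 without DMSO replicate 1) and 3 fell (5 without imiquimod replicate 1), and the median was 0.17, a sign that turned with scaling by library size alone. Rptn, an envelope precursor of the filaggrin family, had 535 and 187 CPM in imiquimod skin, against 8.39, 13.5 and 17.5 CPM in DMSO skin, and rose (log2 fold change 4.78 ± 0.68, adjusted p = 0.000538), and Cnfn, another envelope protein, rose by 2.61. Flg2, a filaggrin-like protein of the granular layer, had 12.2 and 3.7 CPM in imiquimod skin, against 399.5, 659.6 and 331 CPM in DMSO skin, and fell (log2 fold change -5.89 ± 0.77, adjusted p = 0.000286). Lor, the main envelope protein of healthy epidermis, had 531 and 104 CPM in imiquimod skin, against 2017, 3289 and 1434 CPM in DMSO skin, all lower, but lost its call without imiquimod replicate 2 or DMSO replicate 1 or 2 (adjusted p up to 0.227). Flg, Ivl, Krt1 and Krt2 did not pass.

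Gap junctions changed within 1 list in both directions. Of 16 connexins and tight-junction genes, 4 rose and 4 fell. Gjb2, connexin 26, had 1136 and 638 CPM in imiquimod skin, against 6.09, 7.77 and 18.7 CPM in DMSO skin. Gjb6, connexin 30, had 824 and 1031 CPM in imiquimod skin, against 13.1, 11.3 and 19.5 CPM in DMSO skin. Both lay well above DMSO skin in each imiquimod library (log2 fold change 6.36 ± 0.97, adjusted p = 0.00082 for Gjb2 and log2 fold change 5.98 ± 0.72, adjusted p = 0.000156 for Gjb6). Gja1, connexin 43, rose by 2.95, while Gjb5 fell along with Cldn3 (-3.03) and Cldn8, claudins of tight junctions. Cldn1, the main claudin of the epidermal barrier, did not pass.

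The cytokines that define the model were low in RNA but changed. Il23a, the specific chain of IL-23, had 4.02 and 4.1 CPM in imiquimod skin, against 0.224, 0.219 and 0.437 CPM in DMSO skin (log2 fold change 3.79 ± 0.55, adjusted p = 0.000624). Il17a (GRCm39 chr1:20801129-20804720, plus strand) had 1.43 and 1.82 CPM in imiquimod skin, against 0 CPM in all 3 DMSO libraries, at least 27-fold higher. Il17f had 4.73 and 3.03 CPM in imiquimod skin, against 0, 0 and 0.364 CPM in DMSO skin (log2 fold change 5.08 ± 1.03, adjusted p = 0.00654). All imiquimod libraries stood above all DMSO libraries for these 3. Il22 was read 2 and 1 times in imiquimod skin and 0 times in DMSO skin, too few to test. Il12b, the chain that IL-23 shares with IL-12, had 4.45 and 2.15 CPM in imiquimod skin, against 0.895, 1.15 and 2.77 CPM in DMSO skin, which overlapped, and was not called (log2 fold change 1.02 ± 0.57, adjusted p = 0.229). Il6 had 0.574 and 0.875 CPM in imiquimod skin, against 0 CPM in all 3 DMSO libraries, at least 12-fold higher, and was lost without imiquimod replicate 2 (adjusted p = 0.0687). Nfkbiz, the IκBζ factor that carries IL-17 signals in keratinocytes, had 137 and 57.8 CPM in imiquimod skin, against 13.4, 11.3 and 13.8 CPM in DMSO skin (log2 fold change 2.92 ± 0.57, adjusted p = 0.00358). In all, 7 of 18 genes of the axis rose and 2 fell, with a median of 0.75, and the receptor chains Il17ra and Il17rc did not pass.

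Of 17 genes of the IL-1 and IL-36 families, 9 rose and 1 fell, with a median of 1.63. Il1b, the inflammasome-cut alarm cytokine, had 88.2 and 103 CPM in imiquimod skin, against 1.9, 1.86 and 4.15 CPM in DMSO skin (log2 fold change 5.19 ± 0.52, adjusted p = 4.09e-05). Il33, a nuclear alarmin of epithelia, had 268 and 438 CPM in imiquimod skin, against 18.6, 16.6 and 18.4 CPM in DMSO skin (log2 fold change 4.31 ± 0.38, adjusted p = 1.92e-05). Il36a had 443 and 608 CPM in imiquimod skin, against 34.9, 36.9 and 62.5 CPM in DMSO skin (log2 fold change 3.55 ± 0.69, adjusted p = 0.00371). Il36g had 161 and 149 CPM in imiquimod skin, against 34.4, 39.3 and 37.5 CPM in DMSO skin (log2 fold change 2.06 ± 0.41, adjusted p = 0.00412). None of these 4 overlapped between groups. Il18rap, a chain of the IL-18 receptor, rose by 2.71, and Il1f10, or IL-38, was the member that fell, although not without imiquimod replicate 2 (adjusted p = 0.117). The natural antagonist Il1rn was among those that rose.

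IL-20 cytokines, which act on keratinocytes through IL-20 receptors, were close to absent in DMSO skin and rose. Il19 had 42.8 and 87.9 CPM in imiquimod skin, against 0.112, 0.164 and 0.874 CPM in DMSO skin (log2 fold change 7.49 ± 0.77, adjusted p = 4.93e-05). Il24 had 3.01 and 1.68 CPM in imiquimod skin, against 0 CPM in all 3 DMSO libraries, at least 39-fold higher. The receptor chain Il20rb, which all of these use, had 92.8 and 113 CPM in imiquimod skin, against 262, 234 and 227 CPM in DMSO skin, and was lower (log2 fold change -1.23 ± 0.30, adjusted p = 0.0121), but its call was lost without either imiquimod library (adjusted p up to 0.106). Of 10 genes of EGF family ligands and their receptors, 6 rose, all of them ligands, and the receptors Egfr, Erbb2 and Erbb3 did not pass. Hbegf, which drives keratinocyte migration in wounds, had 471 and 256 CPM in imiquimod skin, against 16.4, 17.7 and 20.7 CPM in DMSO skin (log2 fold change 4.31 ± 0.35, adjusted p = 1.47e-05), and Areg, Epgn and Nrg1 rose by 2.66, 2.93 and 3.35.

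Tnf itself had 0.861 and 2.69 CPM in imiquimod skin, against 0.783, 0.492 and 0.729 CPM in DMSO skin, higher in both imiquimod libraries, and was not called (log2 fold change 1.48 ± 0.53, adjusted p = 0.0673), although it passed with DESeq2 (adjusted p = 0.0407) and without imiquimod replicate 1 (adjusted p = 0.025). Of 20 genes of NF-κB feedback, 4 rose (2 without DMSO replicate 1 or 2) and none fell, including Bcl3 (log2 fold change 2.08 ± 0.35, adjusted p = 0.00152), an IκB-type co-factor, and Tnfaip2 (log2 fold change 2.76 ± 0.39, adjusted p = 0.000495). The feedback inhibitors Nfkbia and Tnfaip3 did not pass. Ifnb1 had no read in any Cre-negative library and Ifng had 1 read, in DMSO replicate 1.

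Signals that draw neutrophils rose together. Of 11 chemokines, receptors and growth factors for neutrophils, 7 rose and none fell, with a median of 3.84. Cxcl2 had 56.7 and 28.6 CPM in imiquimod skin, against 0.168, 0.383 and 1.09 CPM in DMSO skin (log2 fold change 6.32 ± 0.63, adjusted p = 4.09e-05). Cxcl1 had 6.89 and 7.2 CPM in imiquimod skin, against 0, 0.109 and 0.146 CPM in DMSO skin (log2 fold change 6.31 ± 1.16, adjusted p = 0.00259). Cxcl5 had 2.44 and 4.57 CPM in imiquimod skin, against 0, 0 and 0.0729 CPM in DMSO skin (log2 fold change 6.98 ± 1.41, adjusted p = 0.00457). Csf3, or G-CSF, was also among those that rose. Csf3r, the receptor of G-CSF on neutrophils, had 5.31 and 14.3 CPM in imiquimod skin, against 0.783, 0.985 and 1.24 CPM in DMSO skin (log2 fold change 3.30 ± 0.52, adjusted p = 0.00099). Cxcr2, the receptor of the CXCL chemokines, rose as well, but lost its call without imiquimod replicate 1 or DMSO replicate 1 or 2 (adjusted p up to 0.0755).

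Of 26 neutrophil marker genes, 16 rose and 2 fell, with a median of 3.39, and 12 of the rises held without any 1 library. Mmp8, neutrophil collagenase, had 6.74 and 11 CPM in imiquimod skin, against 0.0559, 0.0547 and 0.146 CPM in DMSO skin (log2 fold change 6.65 ± 0.98, adjusted p = 0.000678). Trem1, a receptor that amplifies neutrophil and monocyte activation, had 7.32 and 5.99 CPM in imiquimod skin, against 0, 0 and 0.219 CPM in DMSO skin (log2 fold change 6.57 ± 0.73, adjusted p = 8.24e-05). Clec4e, which senses fungal and mycobacterial lipids, had 2.87 and 2.02 CPM in imiquimod skin, against 0.0559, 0 and 0 CPM in DMSO skin (log2 fold change 6.41 ± 0.68, adjusted p = 8.39e-05). Fpr1, the receptor for bacterial formyl peptides, had 2.3 and 6.53 CPM in imiquimod skin, against 0 CPM in all 3 DMSO libraries, at least 73.3-fold higher. Ly6g, the defining surface marker, had 0.717 and 0.336 CPM in imiquimod skin, against 0 CPM in all 3 DMSO libraries, at least 8.76-fold higher, and was lost without imiquimod replicate 1 (adjusted p = 0.0527). Of the granule genes of immature neutrophils, Mpo, Elane and Ctsg had 0 counts in imiquimod skin. Camp, Ltf and Ngp did not pass. The 2 that fell were Wfdc21, an antimicrobial whey acidic protein, and Prtn3, proteinase 3 of granules, which had 0.287 and 0.404 CPM in imiquimod skin, against 4.42, 1.04 and 4.15 CPM in DMSO skin, and lost its call without either imiquimod library or DMSO replicate 1 (adjusted p up to 0.127). The list's summed level, 86547 and 193636 CPM in imiquimod skin, against 969, 948 and 1457 CPM in DMSO skin, is nearly all S100a8 and S100a9, which keratinocytes also make. Neutrophils hold RNA of several antimicrobial and chemokine genes given above, and their part in those results was not tested. Ptprc, the CD45 gene of all leukocytes, had 23.1 and 35 CPM in imiquimod skin, against 26.8, 22.2 and 37.5 CPM in DMSO skin, and the groups overlapped.

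Macrophage and monocyte genes were mixed, with 6 of 30 higher (2 without imiquimod replicate 2, 3 without DMSO replicate 2) and 3 lower (1 without imiquimod replicate 1) and a median of 0.09, which turned negative with scaling by library size alone. Arg1, the arginase of alternatively activated macrophages and of wounded epidermis, had 418 and 358 CPM in imiquimod skin, against 43.4, 42.8 and 29.7 CPM in DMSO skin (log2 fold change 3.33 ± 0.68, adjusted p = 0.00477). Fcgr4, an activating receptor for IgG, had 5.88 and 23.9 CPM in imiquimod skin, against 0.335, 0.219 and 1.02 CPM in DMSO skin (log2 fold change 4.88 ± 0.74, adjusted p = 0.000808). Retnla, a marker of alternatively activated macrophages, had 1.43 and 2.29 CPM in imiquimod skin, against 58.3, 78.9 and 231 CPM in DMSO skin, and fell (log2 fold change -6.00 ± 0.76, adjusted p = 0.000221). Adgre1, Csf1r, Mrc1 and the C1q genes did not pass. Of 24 chemokines for monocytes and lymphocytes, 3 rose and 5 fell (2 without either imiquimod library, 3 without DMSO replicate 2 or 3). Ccl3 and Ccl4, made by activated myeloid cells, rose by 4.61 and 4.77, whereas Ccl27a, the chemokine by which keratinocytes draw skin-homing T cells, had 3.59 and 5.05 CPM in imiquimod skin, against 68.4, 63.4 and 121 CPM in DMSO skin, and fell (log2 fold change -4.27 ± 0.53, adjusted p = 0.000194). Ccl24, an eosinophil chemokine, had 0.861 and 0 CPM in imiquimod skin, against 10.3, 9.96 and 12.1 CPM in DMSO skin, and its call was lost without imiquimod replicate 2 (adjusted p = 0.0718). Ccl20, the ligand that draws CCR6-bearing IL-17 cells, and the monocyte chemokine Ccl2 did not pass.

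Type I interferon targets, the usual readout of TLR7, did not pass as higher by edgeR. Of 36 tested interferon-stimulated genes none rose and 5 fell (0 without imiquimod replicate 2, 1 without DMSO replicate 1 or 2, 2 without imiquimod replicate 1), with a median of -0.75, and none of the 5 held in every left-out library. At an unadjusted p under 0.05, 1 was higher and 10 were lower, while DESeq2 called 0 higher and voom called 0 higher. The list's summed level was 190.2 and 212 CPM in imiquimod skin, against 246, 204 and 305 CPM in DMSO skin. The ranges overlapped. Tlr7 itself had 1.15 and 2.89 CPM in imiquimod skin, against 3.19, 1.81 and 2.19 CPM in DMSO skin, and was not called (log2 fold change -0.19 ± 0.47, adjusted p = 0.924). Myd88, the adaptor that TLR7 and the IL-1 receptors share, had 105 and 101 CPM in imiquimod skin, against 46, 43.8 and 49.2 CPM in DMSO skin, and rose (log2 fold change 1.16 ± 0.26, adjusted p = 0.00909). That call was lost with scaling by library size alone (adjusted p = 0.284) and when tested against a fold of 1.5 (adjusted p = 0.0562). Ifit3b had 0.143 and 0.0673 CPM in imiquimod skin, against 3.13, 1.37 and 1.38 CPM in DMSO skin, and was lower (log2 fold change -4.28 ± 1.02, adjusted p = 0.0115). Its call was lost without imiquimod replicate 2 and by voom (adjusted p = 0.063 by voom). Isg15, Ifit1, Rsad2, Usp18 and Irf7 did not pass. The cream was given until day 7, and earlier times were not analysed here. Of the markers of plasmacytoid dendritic cells, the main interferon source after TLR7, the surface receptor Siglech had 0.143 and 0.0673 CPM in imiquimod skin, against 0.839, 0.93 and 0.437 CPM in DMSO skin. It was the 1 of 9 such genes that fell, and none rose. Its call was lost without any 1 library other than DMSO replicate 3. With all libraries it was also lost by DESeq2 (adjusted p = 0.0733) and by voom (adjusted p = 0.0776). The same held with no filter on low counts (adjusted p = 0.0855) and when tested against a fold of 1.5 (adjusted p = 0.0607). The list's summed level was 2593 and 4465 CPM in imiquimod skin, against 1809, 2079 and 1489 CPM in DMSO skin, most of it from Ly6d, which keratinocytes also make and which is named here after its values were seen. Ly6d had 2487 and 4275 CPM in imiquimod skin, against 1491, 1778 and 1273 CPM in DMSO skin, with no overlap, and was not called (adjusted p = 0.051), although it passed without imiquimod replicate 1.
Promoters of 2 genes of this list are shown because interferon targets are known by a short element there. The interferon-stimulated response element, searched as 2 copies of GAAA with any 2 bases between them on both strands of the same 300-base windows, was in 13 of 30 promoters of the 24 genes with an entry (43.3%), against 3.44% of all promoters and 3.12% of those of tested genes. The windows are at chr4:156200845-156200914 (minus strand) and chr19:34640774-34640843 (plus strand), with each match in capitals. Overlapping matches are written as 1 run in Isg15, and in Ifit1 they read on the other strand.
Isg15: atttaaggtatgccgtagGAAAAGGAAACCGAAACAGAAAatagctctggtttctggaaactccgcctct
Ifit1: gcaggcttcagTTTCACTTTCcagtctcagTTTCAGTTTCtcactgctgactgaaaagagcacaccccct
Neither gene passed the test.

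MHC class II genes, which show antigens to T cells, fell in part. Of 9 such genes 6 fell (1 without imiquimod replicate 1) and none rose, with a median of -1.66. Cd74, the invariant chain that loads class II molecules, had 18.4 and 15.1 CPM in imiquimod skin, against 78.8, 73.3 and 139 CPM in DMSO skin, and fell (log2 fold change -2.54 ± 0.46, adjusted p = 0.00228). H2-Aa, a chain of the class II molecule itself, had 17.2 and 30.4 CPM in imiquimod skin, against 55.7, 75.1 and 95.9 CPM in DMSO skin. Ciita, the master activator of the class II genes, had 3.59 and 5.58 CPM in imiquimod skin, against 13.1, 13.2 and 19.1 CPM in DMSO skin. Both were lower in each imiquimod library, but both calls were lost without imiquimod replicate 1 (adjusted p = 0.115 and 0.0692). Of 17 markers of Langerhans and other dendritic cells 2 fell. Mgl2, a lectin of dermal dendritic cells, had 6.03 and 15.3 CPM in imiquimod skin, against 181, 227 and 177 CPM in DMSO skin (log2 fold change -4.18 ± 0.60, adjusted p = 0.000532). Cd207, the langerin of Langerhans cells, had 1.004 and 5.38 CPM in imiquimod skin, against 6.04, 4.92 and 14.2 CPM in DMSO skin, and was not called (log2 fold change -1.33 ± 0.67, adjusted p = 0.19). Of 26 genes that interferon-γ induces, 1 rose and 1 fell. Of 21 T cell and NK cell genes, 2 rose and 2 fell, none in every left-out library, and Cd4, Cd8a and Trac had too few reads to test.

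Skint genes encode butyrophilin-like proteins of keratinocytes, and Skint1 is needed for the dendritic epidermal γδ T cells of mouse skin. Of 10 tested Skint genes 8 fell (5 without either imiquimod library) and none rose, with a median of -3.34. Skint5 had 0.143 and 0.0673 CPM in imiquimod skin, against 22, 15.2 and 16.4 CPM in DMSO skin (log2 fold change -7.46 ± 0.66, adjusted p = 6.88e-05). Skint9 had 0.287 and 0.202 CPM in imiquimod skin, against 22.3, 29.3 and 35.8 CPM in DMSO skin (log2 fold change -6.92 ± 0.69, adjusted p = 5.90e-05). Skint10 had 0.287 and 0.471 CPM in imiquimod skin, against 17.1, 17.9 and 16 CPM in DMSO skin (log2 fold change -5.38 ± 0.52, adjusted p = 4.93e-05). Skint7 had 0 CPM in both imiquimod libraries, against 2.96, 4.49 and 5.54 CPM in DMSO skin, at least 31.5-fold lower. Skint1 and Skint3 did not pass. The genes are near-identical copies in a cluster, and their reads may be split.

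Cholesterol synthesis genes rose by modest amounts. The barrier needs cholesterol and ceramides in lamellar lipids, and the synthesis genes share control by SREBP2. Of 22 tested genes 18 rose (9 without imiquimod replicate 1, 11 without imiquimod replicate 2) and none fell, with a median of 1.62 and 1.18 to 2.39 among those that rose. Summed, they came to 7216 and 5183 CPM in imiquimod skin, against 2430.5, 2795 and 1949.6 CPM in DMSO skin. Idi1, which isomerizes the isoprenoid unit, had 31.3 and 25.3 CPM in imiquimod skin, against 8.05, 4.82 and 3.21 CPM in DMSO skin (log2 fold change 2.39 ± 0.43, adjusted p = 0.0024). Nsdhl, which acts on sterols after lanosterol, had 70.3 and 53.1 CPM in imiquimod skin, against 13.3, 13.6 and 8.96 CPM in DMSO skin (log2 fold change 2.37 ± 0.31, adjusted p = 0.000254). Sc5d had 337 and 325 CPM in imiquimod skin, against 71.1, 84.6 and 94.1 CPM in DMSO skin (log2 fold change 1.99 ± 0.30, adjusted p = 0.000827). Fdft1, squalene synthase, rose by 1.80, a call lost with scaling by library size alone (adjusted p = 0.052). The SREBP element, searched as TCACNCCAC on both strands of the promoter windows, was in 1 of 18 promoters of these genes (5.56%), against 1.24% of all promoters. Dhcr7, an enzyme of the last steps, did not pass. Of the 18, 6 held without any 1 library. With scaling by library size alone, 7 rose and the median was 1.10.

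Of 24 enzymes of acylceramides and other barrier lipids, 10 rose (6 without imiquimod replicate 1 or DMSO replicate 1) and none fell, with a median of 0.92. Cers3, the ceramide synthase for ultra-long chains, had 255 and 252 CPM in imiquimod skin, against 51.4, 43.6 and 47.7 CPM in DMSO skin (log2 fold change 2.42 ± 0.33, adjusted p = 0.000371). Sdr9c7, which helps to bind acylceramides to the envelope, had 122 and 139.7 CPM in imiquimod skin, against 21.2, 25.9 and 22.3 CPM in DMSO skin (log2 fold change 2.50 ± 0.42, adjusted p = 0.00156). Outside that list, Fabp5, the epidermal fatty-acid binding protein, had 4669.7 and 6342 CPM in imiquimod skin, against 370.0, 480.1 and 492 CPM in DMSO skin (log2 fold change 3.62 ± 0.45, adjusted p = 0.000214). Sebaceous lipid genes went the other way, with 7 of 23 lower (3 without imiquimod replicate 2, DMSO replicate 1 or 2) and none higher. Scd3, a desaturase of sebocytes, had 11 and 3.97 CPM in imiquimod skin, against 397, 648 and 267 CPM in DMSO skin (log2 fold change -5.89 ± 0.67, adjusted p = 9.77e-05), and Mc5r and Awat2, both of sebaceous glands, fell by 4.14 and 2.38 on the log2 scale.

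Lipid mediators and stress genes were mixed. Of 21 eicosanoid genes 6 rose and 3 fell. Pla2g4d, a cytosolic phospholipase known from psoriatic skin, had 41.6 and 14.4 CPM in imiquimod skin, against 0.335, 0.0547 and 0.291 CPM in DMSO skin (log2 fold change 6.92 ± 0.76, adjusted p = 7.84e-05), Pla2g4e rose by 4.15, and Ptges, a prostaglandin E synthase, rose by 1.88. Alox12e, the epidermal 12-lipoxygenase, had 1.87 and 1.55 CPM in imiquimod skin, against 104, 150.1 and 194 CPM in DMSO skin, and fell (log2 fold change -6.46 ± 1.15, adjusted p = 0.00213), as did the receptor gene Ptger4 (log2 fold change -2.77 ± 0.46, adjusted p = 0.00138). Of 27 NRF2 targets, which protect from oxidants, 9 rose (5 without imiquimod replicate 2) and 2 fell. Slc7a11, the cystine importer, had 359.5 and 120.1 CPM in imiquimod skin, against 1.17, 1.59 and 3.72 CPM in DMSO skin (log2 fold change 6.81 ± 0.83, adjusted p = 0.000182). Gsta4, which clears lipid aldehydes, had 89.95 and 167 CPM in imiquimod skin, against 3.52, 2.41 and 2.11 CPM in DMSO skin (log2 fold change 5.58 ± 0.42, adjusted p = 1.29e-05). Hmox1, Gclc and Txnrd1 of the same list did not pass. Hif1a rose by 2.31 and its lipid-droplet target Hilpda by 3.69, while 5 of 28 glycolysis and hypoxia genes rose (2 without imiquimod replicate 2) and 1 fell.

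Cell-cycle genes rose in part. Of 48 genes of DNA replication and mitosis 13 rose (4 without imiquimod replicate 2 or DMSO replicate 1, 5 without DMSO replicate 2, 7 without DMSO replicate 3) and none fell, with a median of 1.03. Ccne1, cyclin E1, had 12.1 and 14.7 CPM in imiquimod skin, against 1.85, 2.02 and 1.82 CPM in DMSO skin (log2 fold change 2.81 ± 0.41, adjusted p = 0.000645). Cdc20, which opens anaphase, had 40.03 and 52.2 CPM in imiquimod skin, against 7.66, 8.54 and 5.9 CPM in DMSO skin (log2 fold change 2.64 ± 0.45, adjusted p = 0.0017). Rrm2 and Tk1, which supply nucleotides, rose by 2.42 and 1.93. Mki67, the common marker of cycling cells, had 36.7 and 18.4 CPM in imiquimod skin, against 20.1, 25.4 and 24.4 CPM in DMSO skin, overlapping, and was not called (log2 fold change 0.24 ± 0.48, adjusted p = 0.767). Of 14 retinoid and vitamin D genes 6 rose, among them Crabp2, a carrier of retinoic acid, by 2.54, and 2 fell.

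Circadian clock genes were among those that fell. In the clock, Arntl (BMAL1) with Clock or Npas2 activates E-box genes, the Per and Cry proteins shut that activity off, and Dbp, Tef and Hlf pass the rhythm to output genes. Of 18 tested clock genes 10 fell and 1 rose, with a median of -2.21, and 8 of the falls held without any 1 library. Hlf (GRCm39 chr11:90227362-90281721, minus strand) had 5.31 and 2.49 CPM in imiquimod skin, against 79.7, 114 and 107 CPM in DMSO skin (log2 fold change -4.72 ± 0.54, adjusted p = 9.77e-05). Tef had 33 and 38.4 CPM in imiquimod skin, against 330.3, 303 and 243 CPM in DMSO skin (log2 fold change -3.03 ± 0.38, adjusted p = 0.000221). Dbp had 2.73 and 4.24 CPM in imiquimod skin, against 37.3, 35.2 and 29.9 CPM in DMSO skin (log2 fold change -3.27 ± 0.52, adjusted p = 0.00106). Cry2, a repressor, had 5.16 and 3.77 CPM in imiquimod skin, against 25.7, 31.1 and 21.9 CPM in DMSO skin (log2 fold change -2.57 ± 0.38, adjusted p = 0.000753). No library overlapped for these 4. Bhlhe41, Per1 and Nr1d2 also fell and held, and Clock, Npas2, Cry1 and Nr1d1 did not pass. Arntl was the gene that rose, and lost its call without any 1 library other than DMSO replicate 3 (adjusted p up to 0.185). Summed, the list came to 295 and 271 CPM in imiquimod skin, against 810.5, 859 and 727 CPM in DMSO skin. The labels give no hour of sampling, so that treatment and time of day cannot be told apart. With scaling by library size alone 12 fell and none rose.
The E-box, searched as CACGTG, a palindrome that reads alike on both strands, was in 6 of 20 promoters of the 15 of these genes with an entry (30%), against 7.15% of all promoters and 9.47% of those of tested genes. Cholesterol synthesis genes, most of which rose, held it in 4 of 18 promoters (22.2%). Its windows in 3 genes that fell are shown with the motif in capitals, at chr15:81802516-81802581 (plus strand), chr6:145865538-145865603 (minus strand) and chr11:69098753-69098818 (plus strand).
Tef: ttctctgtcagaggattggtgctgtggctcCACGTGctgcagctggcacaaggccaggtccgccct
Bhlhe41: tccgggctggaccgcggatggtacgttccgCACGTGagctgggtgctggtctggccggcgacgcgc
Per1: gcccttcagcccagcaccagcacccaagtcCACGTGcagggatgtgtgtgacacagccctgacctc
The κB motif, searched as GGGA and TTTCC with any 1 base between them, was in 1 of 19 promoters of the antimicrobial genes (5.26%), against 0.411% of all promoters. None of the 5 motifs searched holds another. Dbp and Hlf, which also fell, hold no such match in this window of the table's entries. A match describes letters, and binding was not measured.

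**Figure D4:**
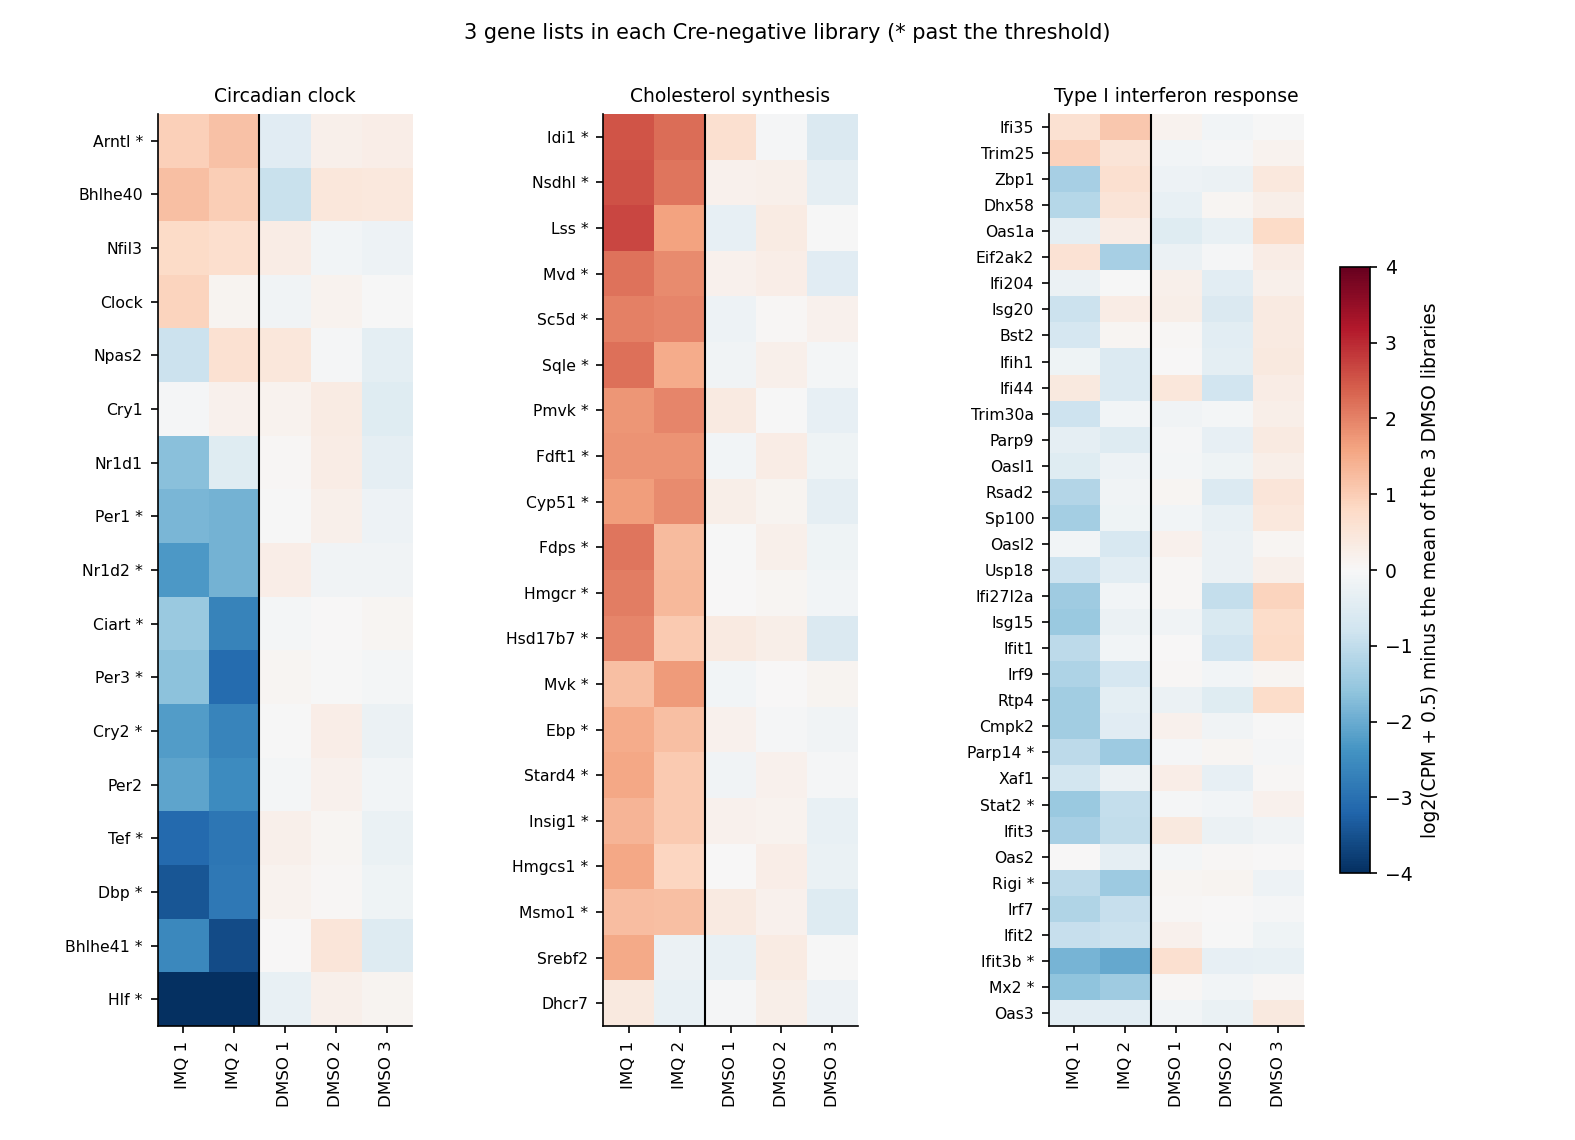
Log2(CPM + 0.5) in each Cre-negative library minus the mean of the 3 DMSO libraries for most tested clock, cholesterol synthesis and type I interferon genes, imiquimod columns left of DMSO columns, genes in order of log2 fold change, a star marking those past the threshold. Clock output genes are low and cholesterol genes high in both imiquimod columns, while interferon genes run between log2 fold changes of -4.39 and 0.89.

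Genes of the tissues under the epidermis were lower with imiquimod. Skeletal muscle lies as a thin sheet under mouse skin, and of 22 of its genes 21 fell and none rose, with a median of -3.34. Acta1, skeletal actin, had 274 and 413 CPM in imiquimod skin, against 5298, 3305 and 2050.3 CPM in DMSO skin (log2 fold change -3.37 ± 0.62, adjusted p = 0.00252). Myl1, a myosin light chain, had 48.9 and 56.2 CPM in imiquimod skin, against 1243, 532 and 585 CPM in DMSO skin (log2 fold change -3.90 ± 0.62, adjusted p = 0.00106). Casq1, which stores calcium in fast fibres, had 7.03 and 8.75 CPM in imiquimod skin, against 267, 133 and 123 CPM in DMSO skin (log2 fold change -4.46 ± 0.63, adjusted p = 0.000511). Myh4, the fast myosin, had 224 and 129 CPM in imiquimod skin, against 4255, 1281 and 1627 CPM in DMSO skin, and lost its call without imiquimod replicate 2 (adjusted p = 0.0535). Without imiquimod replicate 2, 12 of the 21 passed, and 10 held without any 1 library. Summed, muscle RNA came to 2144 and 3323 CPM in imiquimod skin, against 34756, 18341 and 13461 CPM in DMSO skin. DMSO replicate 1 held the most, and the labels do not say how deep each piece of skin was cut. The part of that depth in the result was not tested.

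Fat and dermis went the same way. Of 16 adipocyte genes 12 fell (5 without imiquimod replicate 1) and none rose, with a median of -2.16, and their sum was 277 and 437 CPM in imiquimod skin, against 2908, 1536 and 1991 CPM in DMSO skin. Car3, a carbonic anhydrase of fat and muscle, had 73.3 and 86.4 CPM in imiquimod skin, against 1569, 849.8 and 952 CPM in DMSO skin (log2 fold change -3.81 ± 0.46, adjusted p = 0.000175), and Lep, leptin, and Adrb3, the fat-specific adrenergic receptor, fell by 3.50 and 4.70 on the log2 scale, although neither call held by voom (adjusted p = 0.104 for Lep and 0.0834 for Adrb3). Of 27 fibroblast and matrix genes 12 fell (4 without imiquimod replicate 1) and 1 rose, with a median of -1.37, and 3 of the falls held without any 1 library. Clec3b, a matrix protein of dermal fibroblasts, had 11.2 and 16.5 CPM in imiquimod skin, against 111, 72.9 and 56.5 CPM in DMSO skin (log2 fold change -2.52 ± 0.47, adjusted p = 0.00283), and Mfap5 and Col14a1 fell by 2.77 and 2.30. Col1a1, Col3a1, Dcn and Lum did not pass. Of 18 endothelial genes 1 rose and 2 fell, and Pecam1 and Cdh5 did not pass. Blood genes, 7 of haemoglobin and red cells, were not called in either direction by edgeR, at an unadjusted p under 0.05, by DESeq2 or by voom (0 each), and imiquimod replicate 1 held the least of them.

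Structures and positional genes followed. Of 18 hair follicle stem and duct genes 9 fell (4 without imiquimod replicate 2) and none rose, among them Cd34, a marker of bulge stem cells, with 22.2 and 38.6 CPM in imiquimod skin, against 187, 139 and 136 CPM in DMSO skin (log2 fold change -2.33 ± 0.41, adjusted p = 0.00209), and Lhx2 (log2 fold change -3.24 ± 0.55, adjusted p = 0.00164), which keeps those cells quiescent. Hair shaft genes of growing follicles were uneven between libraries, and 0 of 23 passed by edgeR, at an unadjusted p under 0.05, by DESeq2 or by voom. Of 26 HOX genes, which record position along the body, 8 fell (1 without either imiquimod library, 2 without DMSO replicate 2, 3 without DMSO replicate 1) and none rose, with a median of -1.23. Hoxa7 had 23.7 and 17.6 CPM in imiquimod skin, against 39.1, 127 and 73.1 CPM in DMSO skin. It lost its call without either imiquimod library or DMSO replicate 2, and by voom (adjusted p = 0.0566 by voom). None of the 8 held in every left-out library. The labels name back and ear as sites without tying either to a library, and the part of site in these values was not tested.

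Outside the lists, single genes changed as strongly. U90926 had 19.4 and 9.49 CPM in imiquimod skin, against 0 CPM in all 3 DMSO libraries, at least 239.9-fold higher. Uox, urate oxidase, had 669 and 694 CPM in imiquimod skin, against 0.335, 1.7 and 5.97 CPM in DMSO skin (log2 fold change 8.02 ± 1.02, adjusted p = 0.000222). Gml and Fam3d had 0 counts in DMSO skin and were at least 197-fold and 107-fold higher. At the other end Pyy, peptide YY, best known as a gut hormone (GRCm39 chr11:101997502-101998658, minus strand), had 0 CPM in both imiquimod libraries, against 60.7, 104 and 191 CPM in DMSO skin, at least 864-fold lower with imiquimod set to its floor of 3 counts over both libraries. Dab1, the reelin adaptor, had 0 CPM in both imiquimod libraries, against 12.4, 12 and 12.2 CPM in DMSO skin, at least 88.7-fold lower. Frzb, a secreted Wnt antagonist, had 0 CPM in both imiquimod libraries, against 9.17, 5.91 and 3.42 CPM in DMSO skin, at least 44.9-fold lower. Clca1, Angptl7 and Pdzrn4 fell by 7.98, 6.32 and 6.48 on the log2 scale. In total 2507 of the 2921 called genes stood in none of the lists.

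Nedd8, which the floxed alleles leave intact in the absence of Cre, had 314 and 461 CPM in imiquimod skin, against 359.5, 289.7 and 291 CPM in DMSO skin, overlapping, and was not called (log2 fold change 0.31 ± 0.45, adjusted p = 0.671). Of 18 genes of NEDD8 and its conjugation, which activates cullin-RING ubiquitin ligases, 1 rose, Dcun1d3 (log2 fold change 1.34 ± 0.29, adjusted p = 0.00645), a co-factor of cullin neddylation, and none fell. That call was lost with scaling by library size alone (adjusted p = 0.151). The enzymes Nae1, Uba3, Ube2m and Ube2f and the cullins did not pass.

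Wild-type skin, whose libraries are all separate, gave 1537 genes that rose (9.59%) and 1896 that fell (11.8%). Both tests used the same fit with a shared spread, so they are not independent tests. Of the 2921 genes called in Cre-negative skin, 2813 (96.3%) had the same sign in wild-type skin, against 75.4% of all tested genes. In both genotypes 724 rose and 944 fell, and 2 were called in opposite directions. Those in common made up 55.4% of the rises and 58.5% of the falls of Cre-negative skin, and 47.1% and 49.8% of those of wild-type skin. Across all 16027 genes the log2 fold changes had a Pearson r of 0.70 and a Spearman rho of 0.69, a description across genes, which are not independent replicates.

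No gene passed the test of the difference between the responses, Cre-negative minus wild-type, by edgeR. There 1466 genes had an unadjusted p under 0.05, DESeq2 called 50, and limma voom called 0. Without a filter on low counts edgeR called 203, and without wild-type DMSO replicate 1 it called 4. The smallest adjusted p was 0.0776, and it belonged to Il12b. Il12b had 44 and 45.7 CPM in wild-type imiquimod skin, against 0 and 0.149 CPM in wild-type DMSO skin, where it rose (8.76), while the Cre-negative values given above overlapped. With 2 or 3 libraries a group, a p that missed the threshold does not show that the genotypes responded alike. The genotype goes with sex, since wild-type libraries were female and Cre-negative imiquimod libraries male, and they cannot be told apart in this comparison.

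Some of the lists are given for wild-type skin, side by side with the values above. Stefin A RNA in wild-type skin came to 11319 and 11672 CPM with imiquimod, against 440.2 and 150.04 CPM with DMSO, and Sprr RNA to 18269 and 12105 CPM with imiquimod, against 314 and 657 CPM with DMSO. Muscle RNA was 7342 and 3163 CPM with imiquimod, against 19181 and 14369 CPM with DMSO. In wild-type skin 16 cholesterol genes and 9 clock genes passed in the same directions as in Cre-negative skin, and the medians of the lists were 1.56 and -1.82. Type I interferon genes had a median of -0.80 there, with 1 higher and 6 lower. Krt77 had 139 and 399.6 CPM in wild-type imiquimod skin, against 8945 and 6468 CPM in wild-type DMSO skin, a log2 fold change of -4.84 beside -9.81 in Cre-negative skin, and the difference did not pass the test (adjusted p = 0.416).

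**Figure D5:**
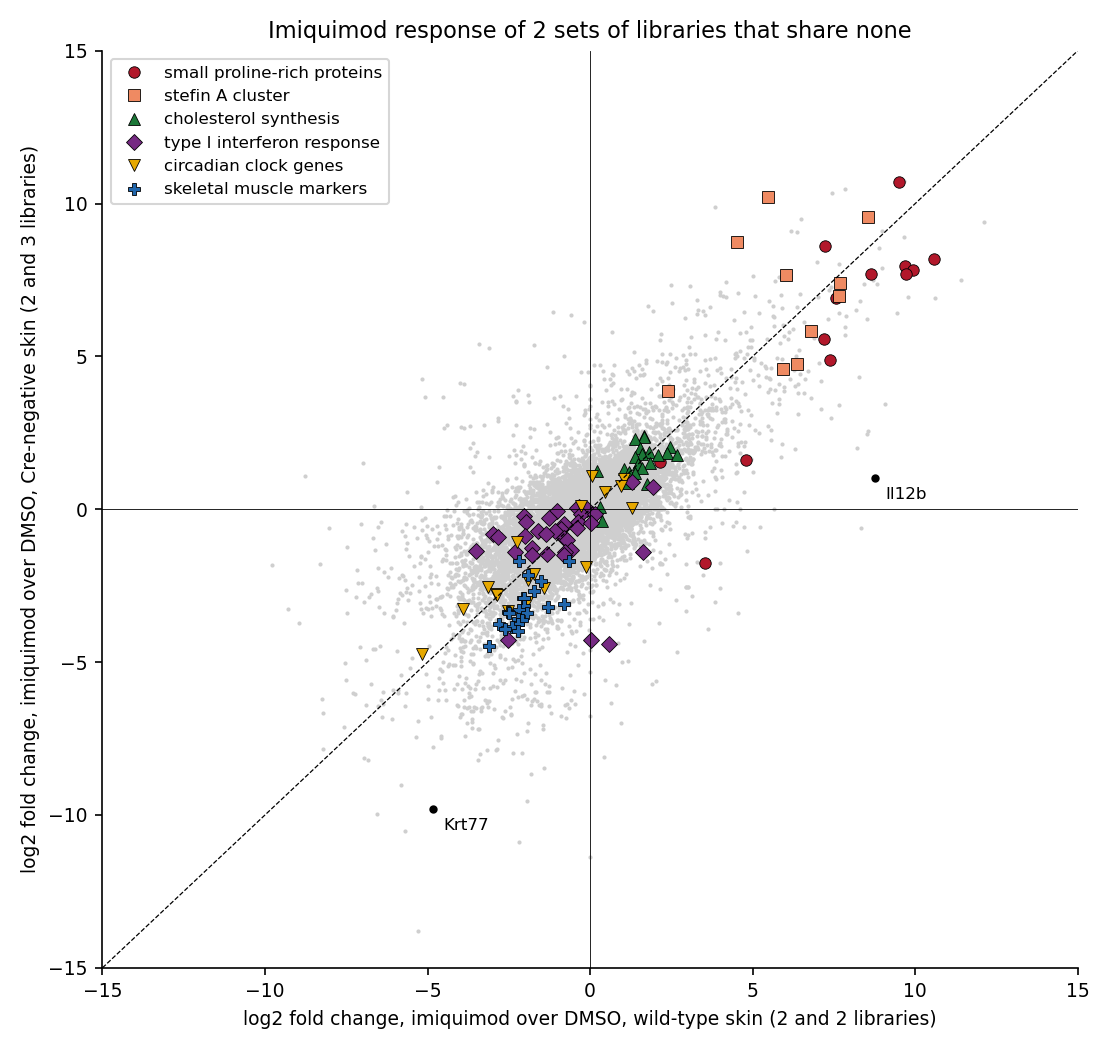
Log2 fold change of imiquimod over DMSO for each tested gene in Cre-negative skin (vertical axis, 2 and 3 libraries) against wild-type skin (horizontal axis, 2 and 2 libraries), with 6 gene lists in colour, a dashed line of equal change, and Il12b and Krt77 named. Sprr and stefin A genes lie far up on both axes, muscle and clock genes far down, and Il12b is named because its difference between the genotypes had the smallest adjusted p, 0.0776.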

How the data were processed

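Total RNA from mouse skin was sequenced from 3′ end tags (QuantSeq forward), per the labels' protocols. The deposited values are raw read counts, with genes in rows and 1 column for each of 14 libraries, and come from featureCounts, per the file headers. The submitters' processing notes also name STAR, DESeq2, GRCm38 and GRCm39, without roles. The table's coordinates are those of GRCm39. The sources used here do not give aligner settings, strand use or the treatment of reads with several matches. Reads are not molecules, so counting floors of 3 counts over a group cover counting error only.

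Columns were mapped to groups by genotype and treatment in their names and titles. Counts of all 14 libraries in 6 groups entered edgeR 4.0.16 (R 4.3.3) with TMM scaling and its filter on low counts, 1 mean per group and a shared spread, and contrasts were taken with the quasi-likelihood test and Benjamini-Hochberg adjustment over 16027 genes at 0.05. Alternatives were DESeq2 1.42.0, limma 3.58.1 with voom, other scalings and filters, sex and replicate terms, and leaving out each library. The script was tested on simulated data in which few genes changed. For imiquimod against DMSO in Cre-negative skin it recovered 2 of 67 changes of 2-fold, 26 of 67 of 4-fold and 58 of 66 of 16-fold. For the difference between the genotypes it recovered 0 of 67, 5 of 67 and 50 of 66. A gene that did not pass may therefore still have changed. No 2 libraries of the same group, among the Cre-negative and wild-type ones, had counts that differed by sampling noise alone. Genes were named by a rule. The 15 highest and 15 lowest changes and the 10 largest gains and losses of CPM were taken from a narrowed set. That set held called genes with an established symbol, no overlap between the groups and a mean of at least 5 CPM in the higher group. Up to 4 genes with the smallest p in each list, and known cytokines and markers of the model, were added. Not every gene that this rule or the lists hold is reported here. A fold against a group at 0 was set against the floor. The members and lists were chosen with earlier results of these data known. Promoters were read from RefSeq (GRCm38.p6), which held entries for 11403 of the tested genes. Libraries of Cre-positive skin entered the fit and are not described.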

Additional observations from a re-analysis of the deposited data

How the results depend on the processing

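The count of called genes in Cre-negative skin was 2921, and it stayed within 1.5 times of that with DESeq2 (3681), voom (2670), other scalings, other filters on low counts, the Cre-negative libraries alone (3633), a sex term (2244) and the male libraries (2238). Tested against a fold of 1.5 it was 1737 in Cre-negative skin and 2136 in wild-type skin. Leaving out 1 Cre-negative library gave 1272 to 2238 genes there, and 1 wild-type library gave 1092 to 3531 genes in wild-type skin, where 3433 passed (up to 3684 over all libraries left out). With a replicate block the Cre-negative count was 2826. Deviations from the group means correlated at -0.055 and -0.175 between Cre-negative libraries of the same number. With 2 imiquimod libraries these deviations mirror each other, so the values cannot show whether the numbers pair libraries. The difference between the genotypes gave 50 genes with DESeq2, 203 with no filter on low counts, and 0 to 4 with 1 library left out. Among 161 of the genes named here, 136 kept their direction and their side of the threshold in every setting. In 46 of 3210 gene and setting pairs a call was lost. The male libraries are the same fit as without DMSO replicate 3, so that fit counts more than once in these pairs. Most of these genes were named for a small p or a large change, so these shares do not stand for all called genes. Of all 2921 calls, 815 held when any 1 Cre-negative library was left out. Genes that were not called changed sign, Mki67 to -0.29 and Nedd8 to -0.30 with library size alone. With 1 library left out, Mki67 ranged between -0.25 and 0.66, and Tlr7 between -1.06 and 0.37. The causes were not tested. With library size alone, the medians of 8 lists also changed sign, those of TLR sensing, suprabasal, basal, NF-κB, monocyte, glycolysis, respiratory chain and NEDD8 genes. Il22, Ifng and Ifnb1 had 3 or fewer counts in all and were not tested.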

Other observations

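Enzymes that cut or guard the matrix changed in Cre-negative skin. Of 20 matrix protease and plasminogen genes 9 rose (3 without imiquimod replicate 2, 4 without DMSO replicate 1 or 2) and 2 fell, with a median log2 fold change of 1.47. Mmp3, stromelysin 1, had 45.9 and 169 CPM in imiquimod skin, against 6.88, 4.6 and 5.39 CPM in DMSO skin (log2 fold change 4.26 ± 0.62, adjusted p = 0.000616). Mmp13, an interstitial collagenase of mice, had 7.32 and 3.3 CPM in imiquimod skin, against 0.447, 0.109 and 0.729 CPM in DMSO skin (log2 fold change 3.63 ± 0.64, adjusted p = 0.00213). Their inhibitor Timp3, which stays bound to the matrix, had 40.5 and 66.2 CPM in imiquimod skin, against 356, 444 and 301 CPM in DMSO skin, and fell (log2 fold change -2.78 ± 0.40, adjusted p = 0.000616). No library overlapped for these 3. Arginine and polyamine enzymes also moved, with 4 of 14 higher and 1 lower. Ass1, which makes the precursor of arginine, had 51.4 and 55 CPM in imiquimod skin, against 5.65, 9.41 and 7.8 CPM in DMSO skin (log2 fold change 2.80 ± 0.42, adjusted p = 0.000718). Smox, spermine oxidase, had 224 and 246 CPM in imiquimod skin, against 50.7, 40.5 and 51 CPM in DMSO skin (log2 fold change 2.31 ± 0.33, adjusted p = 0.000514). Slc7a2, an importer of arginine, had 2.01 and 2.09 CPM in imiquimod skin, against 9.78, 13.6 and 13.6 CPM in DMSO skin, and fell (log2 fold change -2.58 ± 0.47, adjusted p = 0.00243).

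Of 10 itch and alarmin genes 4 rose (1 without imiquimod replicate 2, 2 without DMSO replicate 2) and 2 fell. Osm, oncostatin M of myeloid cells, had 3.16 and 1.82 CPM in imiquimod skin, against 0, 0 and 0.146 CPM in DMSO skin (log2 fold change 5.63 ± 1.10, adjusted p = 0.00376). Il31ra, the receptor chain for the itch cytokine IL-31, had 0.143 and 0.605 CPM in imiquimod skin, against 14.8, 15.9 and 9.69 CPM in DMSO skin, and fell (log2 fold change -4.96 ± 0.70, adjusted p = 0.0004998), while Osmr, the chain that both ligands share, did not pass. Of 19 genes of necroptosis and pyroptosis 5 rose (1 without imiquimod replicate 2, 2 without DMSO replicate 1) and none fell. Aim2, a sensor of DNA in the cytosol, had 51.6 and 32.6 CPM in imiquimod skin, against 7.88, 7.77 and 10.6 CPM in DMSO skin (log2 fold change 2.27 ± 0.40, adjusted p = 0.00195). Of 11 Schwann cell and nerve genes 4 fell (2 without imiquimod replicate 2, DMSO replicate 1 or DMSO replicate 3) and none rose. Ngfr, the low-affinity neurotrophin receptor, had 0.287 and 0.538 CPM in imiquimod skin, against 6.21, 5.75 and 2.99 CPM in DMSO skin (log2 fold change -3.48 ± 0.69, adjusted p = 0.00428). Of 22 genes of the unfolded protein and amino acid stress responses 7 rose (2 to 4 with any 1 library left out) and none fell. Asns, asparagine synthetase, had 13.3 and 8.01 CPM in imiquimod skin, against 2.46, 3.39 and 3.06 CPM in DMSO skin (log2 fold change 1.83 ± 0.35, adjusted p = 0.00299), a call lost with scaling by library size alone (adjusted p = 0.0592).

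Of 31 proteasome subunit genes 6 rose (1 without imiquimod replicate 2, DMSO replicate 1 or 2, 2 without DMSO replicate 3) and none fell, with a median log2 fold change of 0.71. Of 35 respiratory chain genes 8 rose (0 without imiquimod replicate 2 or DMSO replicate 2, 1 without DMSO replicate 1 or DMSO replicate 3) and none fell, with a median of 0.60. Of 15 Ly6 family genes, which encode small lipid-anchored surface proteins, 4 rose (2 without DMSO replicate 1 or 2) and 1 fell, with a median of 0.94. Of 18 genes of TLR sensing 3 rose and 2 fell, with a median of 0.35. Of 9 melanocyte genes none rose and 2 fell, with a median of -1.79. Of 15 complement and coagulation genes none rose and 1 fell, with a median of -0.30. Of 7 mast cell genes 1 rose and 1 fell, with a median of -0.46. Of 3 tested B cell and plasma cell genes 0 passed by edgeR, at an unadjusted p under 0.05, by DESeq2 or by voom.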
